A study of Mus musculus with 34 samples.

Results

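The effect of the 5xFAD transgenes in mice with a Down syndrome-like duplication, all treated with a Janus kinase (JAK) inhibitor, was read from 9 of the 34 hippocampal RNA sequencing libraries of the series. These were the 4 libraries labelled 5xFAD-Dp16 and tofacitinib and the 5 libraries labelled Dp16 and tofacitinib, chosen by their labels alone. Both groups were 6 months old, both carried the Dp16 duplication, and both received 15 mg/kg tofacitinib each day by gavage, so they differed by the transgenes. Dp16 mice have an extra copy of the part of mouse chromosome 16 that matches much of human chromosome 21 (taken here as 75540514 to 97962622, GRCm38), which holds App and the receptor genes Ifnar1, Ifnar2, Ifngr2 and Il10rb. 5xFAD mice express mutated human genes of familial Alzheimer's disease, APP among them, in neurons from a Thy1 promoter and form amyloid plaques, as a model of that disease. Dp16 libraries 1 to 3 and 5xFAD-Dp16 libraries 1 and 2 were from females, and the other 2 of each group from males. The comparisons set beside it used other libraries: 3 5xFAD-Dp16 against 3 Dp16 animals given 0.5% methylcellulose without drug (sham), and 5 5xFAD against 5 wild-type (WT) animals given tofacitinib. These animals were 6 months old as well. Each sham group held 2 females and 1 male, and the 5xFAD and WT groups each held 2 females and 3 males. The design text of the series lists 4 sham 5xFAD-Dp16 and 6 tofacitinib 5xFAD animals, more than the libraries present. Libraries were numbered separately in each group, and the labels do not say whether animals shared a litter.

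Microglia, the resident macrophages of the brain, gather at amyloid plaques. There they take on a state known for the receptors Trem2, Tyrobp, Clec7a and Itgax, the protease inhibitor Cst7 and a large set of lysosomal genes, while genes of resting microglia such as P2ry12 and Tmem119 are often lower. Type I interferon signals through Ifnar1 and Ifnar2 to Jak1 and Tyk2, which activate STAT proteins and Irf9 and through them the interferon-stimulated genes. Tofacitinib blocks mainly Jak1 and Jak3, and Dp16 carries an extra copy of Ifnar1 and Ifnar2, which lie upstream of Jak1.

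The 9 libraries held 17.0 to 21.0 M counts, and 17518 genes entered the test. 5xFAD-Dp16 library 1 stood apart from the other 8 in markers of neighbouring brain tissue. Its summed level of 12 thalamus and habenula genes was 549 CPM (counts per M counts) against 213 to 255 CPM in the others, and its summed level of 12 striatum genes was 477 against 190 to 223 CPM. The thalamic factor Tcf7l2 was at 58.2 CPM there and at 5.65 to 10.4 CPM elsewhere. Its summed level of 9 CA1 markers was the lowest of the 9 libraries (553 against 743 to 868 CPM), so all libraries held CA1 markers. Choroid plexus markers varied within both groups, from 45.7 to 5337 summed CPM in Dp16 and from 33.4 to 2569 in 5xFAD-Dp16. For the comparison of these 9 libraries, calls, and list values that moved by over 1.5 times without a library, are given with and without it. Medians near 0 are given with their range over the 9 fits that leave out a library.

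**Figure D1:**
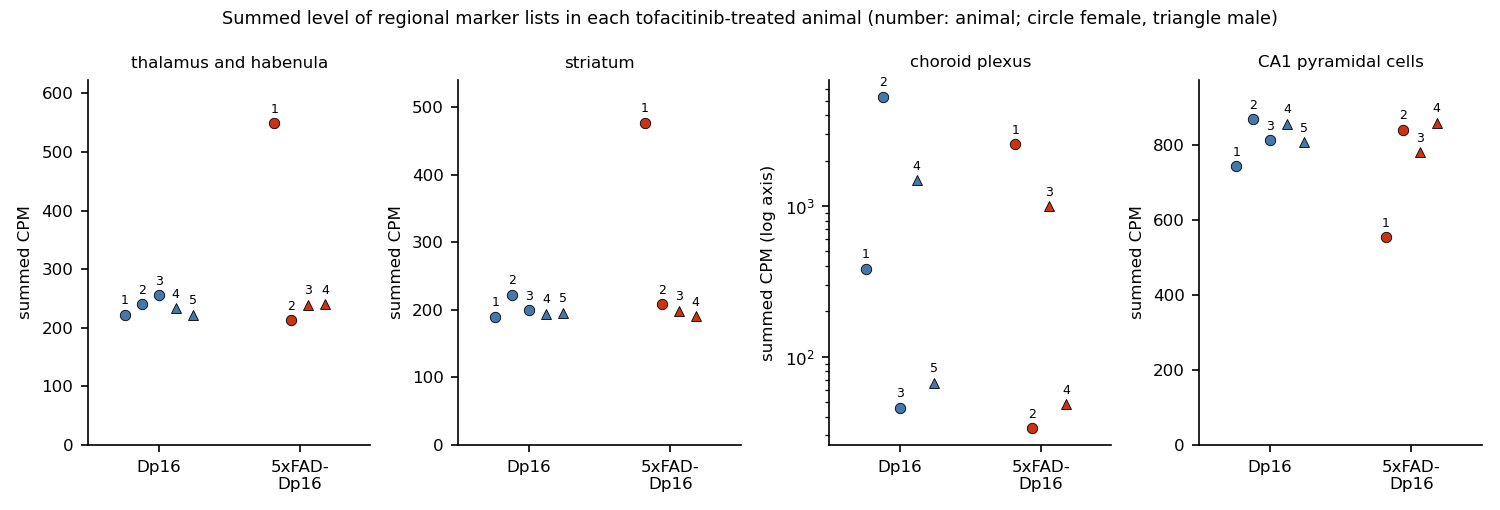
Summed CPM (vertical axes, logarithmic for choroid plexus) of 4 regional marker lists in each of the 5 Dp16 and 4 5xFAD-Dp16 animals given tofacitinib, with the animal's number beside each point. 5xFAD-Dp16 animal 1 lies above all others for thalamus and striatum and below them for CA1, and choroid plexus markers spread over both groups.

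Between the groups 5 genes rose and 0 fell. The 5 were Cst7, an inhibitor of lysosomal cysteine proteases; Ccl6, a chemokine of myeloid cells; Clec7a, the receptor dectin-1; Hcar2, a receptor for hydroxycarboxylic acids; and Thy1, whose promoter drives the transgenes. Of all genes tested, 0.0285% were called higher and 0% lower at an adjusted p under 0.05 (edgeR quasi-likelihood test, Benjamini-Hochberg). At an unadjusted p under 0.05, 343 genes (1.96%) were higher and 111 (0.634%) lower, and DESeq2 called 25 higher and 0 lower. In 205 genes (1.17%) every 5xFAD-Dp16 library lay above every Dp16 library, and in 77 (0.44%) every one lay below. The median log2 fold change over all genes was 0.00, with 49.6% of genes above 0. Fitted on the 9 libraries alone, with 15898 genes tested, 35 were called higher (0.22%) and 0 lower, and 4 of the 5 genes were among them. The exception was Hcar2, which did not pass the filter on low counts there. These are whole-tissue levels, in which more cells of a type and more RNA per cell cannot be told apart.

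Cst7 (chromosome 2, 150570415 to 150578944) was almost silent in Dp16 animals, at 0.183, 0.194, 0.287, 0.108 and 0.259 CPM in libraries 1 to 5. In 5xFAD-Dp16 libraries 1 to 4 it stood at 16.7, 19.0, 21.4 and 11.7 CPM. The groups were far apart, and the lowest carrier was animal 4. The log2 fold change was 6.32 (SE 0.81, adjusted p = 0.000204 with edgeR).

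Ccl6 (chromosome 11, 83587882 to 83593087) had the smallest p of all genes. It was at 1.7, 1.07, 1.53, 2 and 1.55 CPM in Dp16 and at 12.6, 10.9, 9.83 and 8.9 CPM in 5xFAD-Dp16 libraries. Neither group spread by much, and the groups lay far apart. The log2 fold change was 2.75 (SE 0.33, edgeR adjusted p = 5.21e-05). Clec7a (chromosome 6, 129461591 to 129472779) was at 1.34, 0.728, 0.43, 0.379 and 0.569 CPM against 13.6, 9.71, 10 and 6.25 CPM, without overlap and again lowest in carrier animal 4. Its log2 fold change was 3.88 (SE 0.65, edgeR adjusted p = 0.00788). The call for Clec7a was lost without Dp16 library 3 (adjusted p = 0.0618) or library 4 (adjusted p = 0.0596), while the other 4 genes were called in each of the 9 fits that left out a library.

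Hcar2 (chromosome 5, 123863570 to 123865499), a receptor for niacin and ketone bodies that microglia express near plaques, had 0 counts in all 5 Dp16 libraries and 54 counts in the 4 5xFAD-Dp16 libraries. Their levels were 1.59, 0.622, 0.217 and 0.412 CPM, with most of the counts in animal 1. Set against a floor of 3 counts over the Dp16 group, Hcar2 was at least 22.9-fold higher (edgeR adjusted p = 0.00335), and without 5xFAD-Dp16 library 1 its adjusted p was 0.0334. Thy1 (chromosome 9, 44043384 to 44048579), a surface protein of neurons, was at 782, 890, 930, 930 and 934 CPM in Dp16 and at 1735, 2848, 2093 and 2610 CPM in 5xFAD-Dp16 animals. Every library followed its label, with a log2 fold change of 1.38 (SE 0.20, edgeR adjusted p = 0.000824). The files do not tell reads of the mouse gene from any that the transgenes' Thy1 sequence may give, so Thy1 serves as a check of the labels. The order of the 4 carriers in Thy1 (1, 3, 4, 2 from low to high) was not their order in Cst7 (4, 1, 2, 3) or Clec7a (4, 2, 3, 1).

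**Figure D2:**
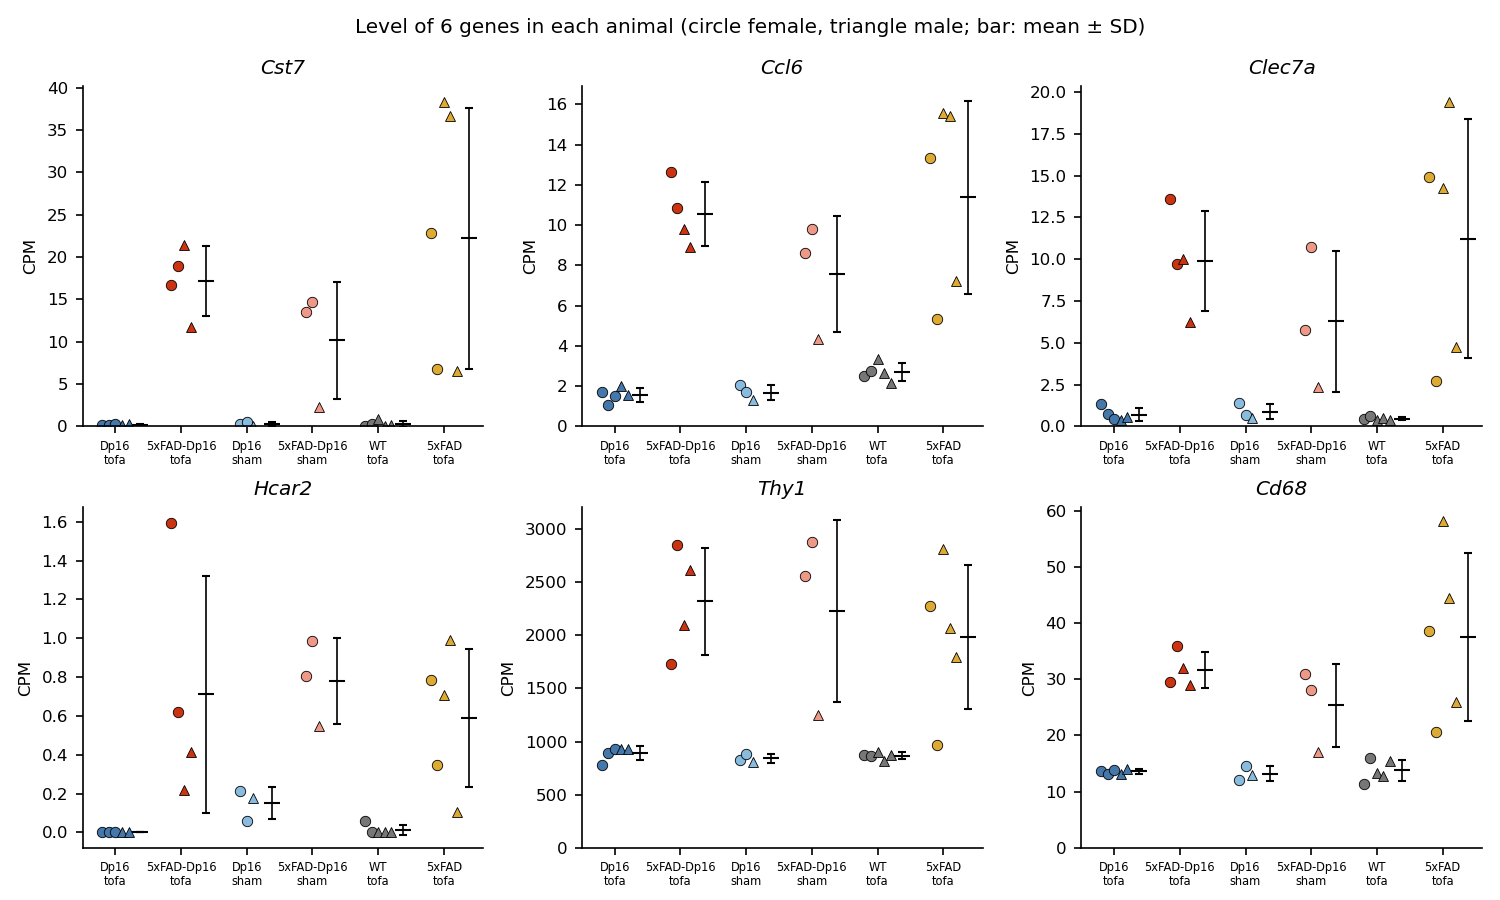
CPM (linear vertical axes) of Cst7, Ccl6, Clec7a, Hcar2, Thy1 and Cd68 in each animal of 6 groups, with the mean and SD of each group. In the tofacitinib Dp16 background all 4 carriers lie above all 5 Dp16 animals for each gene, and Hcar2 is at 0 in the 5 Dp16 animals.

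Per kilobase of gene, from the RPKM values, the highest of the microglial genes past the threshold was Cst7, at 17.6 ± 4.5 RPKM (SD, n = 4) in 5xFAD-Dp16 against 0.21 ± 0.073 RPKM (SD, n = 5) in Dp16 animals. Ccl6 followed at 7.43 ± 1.5 RPKM and Clec7a at 4.41 ± 1.5 RPKM in carriers, while Hcar2 reached 0.381 ± 0.35 RPKM (SD, n = 4). Some genes with smaller relative differences stood higher on the same scale in carriers, among them the cathepsin Ctsd at 215 ± 37 RPKM, the complement subunit C1qa at 150 ± 20 and Trem2 at 27.5 ± 4.1 RPKM.

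The stretch from 250 bases before to 50 bases after the start of 12 genes was looked up among RefSeq promoters (GRCm38.p6), and 9 had an entry, not among them Thy1, Hcar2 and Usp18. All 9 are shown: the 3 called genes that have an entry, then Cd68, Ctsd, Fcgr1 and Ly86 (each at an edgeR adjusted p of 0.0878), and the interferon-stimulated genes Ifit3 and Trim25. The genes and motifs were chosen after their values were seen. Each was searched on both strands for 5 motifs, given with the share of all 32851 RefSeq promoters of this length that hold them. These were GAGGAAGT, bound by the myeloid factor PU.1 (3.2%), GAAA followed after any 2 bases by GAAA, the interferon-stimulated response element or ISRE (3.44%), TTCNNNGAA, the STAT site or GAS (8.3%), TGANTCA, bound by AP-1 (7.81%), and CACGTG, the E-box bound by TFEB among others (7.15%). Matches are in capitals, the rest in lower case, 5′ to 3′ along the gene, and no match overlapped another. Clec7a has a pair of overlapping entries, of which the downstream is printed. The windows are chr2:150570165-150570464 (+ strand) for Cst7, chr6:129472730-129473029 (- strand) for Clec7a, chr11:83593038-83593337 (- strand) for Ccl6, chr11:69666121-69666420 (- strand) for Cd68, chr7:142387778-142388077 (- strand) for Ctsd, chr3:96293920-96294219 (- strand) for Fcgr1, chr13:37345095-37345394 (+ strand) for Ly86, chr19:34583279-34583578 (+ strand) for Ifit3 and chr11:88999153-88999452 (+ strand) for Trim25.
Cst7: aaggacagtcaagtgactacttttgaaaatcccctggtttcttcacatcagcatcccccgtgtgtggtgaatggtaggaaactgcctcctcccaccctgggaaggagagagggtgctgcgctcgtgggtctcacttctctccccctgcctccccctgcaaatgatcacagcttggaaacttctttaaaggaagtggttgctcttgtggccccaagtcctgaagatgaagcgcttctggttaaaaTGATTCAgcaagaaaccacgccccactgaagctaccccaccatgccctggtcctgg
Clec7a: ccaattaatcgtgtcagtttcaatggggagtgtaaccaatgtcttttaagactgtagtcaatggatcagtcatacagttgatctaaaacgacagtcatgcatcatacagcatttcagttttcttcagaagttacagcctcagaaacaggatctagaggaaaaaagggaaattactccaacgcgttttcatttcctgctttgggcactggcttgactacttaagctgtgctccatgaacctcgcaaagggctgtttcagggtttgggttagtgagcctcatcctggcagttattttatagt
Ccl6: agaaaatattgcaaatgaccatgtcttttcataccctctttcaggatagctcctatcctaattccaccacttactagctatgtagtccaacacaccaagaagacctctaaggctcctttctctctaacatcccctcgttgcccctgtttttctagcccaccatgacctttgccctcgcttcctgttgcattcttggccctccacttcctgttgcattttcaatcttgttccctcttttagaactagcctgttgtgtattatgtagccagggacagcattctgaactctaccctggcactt
Cd68: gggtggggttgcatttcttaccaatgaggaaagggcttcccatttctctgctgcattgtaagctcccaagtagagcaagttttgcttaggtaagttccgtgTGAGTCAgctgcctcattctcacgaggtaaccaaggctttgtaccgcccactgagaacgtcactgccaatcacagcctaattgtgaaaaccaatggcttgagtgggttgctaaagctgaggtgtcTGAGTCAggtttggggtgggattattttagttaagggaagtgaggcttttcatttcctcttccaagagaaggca
Ctsd: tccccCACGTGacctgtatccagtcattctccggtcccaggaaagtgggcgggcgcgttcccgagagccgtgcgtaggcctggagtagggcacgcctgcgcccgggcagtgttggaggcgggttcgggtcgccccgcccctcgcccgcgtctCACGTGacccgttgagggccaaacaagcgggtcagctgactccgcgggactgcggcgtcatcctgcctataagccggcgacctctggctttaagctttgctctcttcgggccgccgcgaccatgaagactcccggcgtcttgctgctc
Fcgr1: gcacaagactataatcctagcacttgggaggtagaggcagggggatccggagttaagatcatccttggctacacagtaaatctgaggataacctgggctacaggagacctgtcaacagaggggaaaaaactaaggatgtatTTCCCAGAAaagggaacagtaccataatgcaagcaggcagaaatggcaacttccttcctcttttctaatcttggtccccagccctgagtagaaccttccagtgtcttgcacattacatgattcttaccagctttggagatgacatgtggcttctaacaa
Ly86: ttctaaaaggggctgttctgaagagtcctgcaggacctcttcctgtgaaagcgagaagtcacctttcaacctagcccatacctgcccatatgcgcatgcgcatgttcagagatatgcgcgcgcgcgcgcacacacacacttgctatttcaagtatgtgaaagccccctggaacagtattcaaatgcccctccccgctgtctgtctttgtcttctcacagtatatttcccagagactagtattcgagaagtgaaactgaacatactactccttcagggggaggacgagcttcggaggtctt
Ifit3: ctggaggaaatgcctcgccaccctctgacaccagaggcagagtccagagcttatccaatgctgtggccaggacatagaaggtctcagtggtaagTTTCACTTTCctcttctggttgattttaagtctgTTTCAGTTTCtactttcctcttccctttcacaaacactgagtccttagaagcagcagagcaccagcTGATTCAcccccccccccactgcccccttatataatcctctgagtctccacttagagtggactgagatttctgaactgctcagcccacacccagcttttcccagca
Trim25: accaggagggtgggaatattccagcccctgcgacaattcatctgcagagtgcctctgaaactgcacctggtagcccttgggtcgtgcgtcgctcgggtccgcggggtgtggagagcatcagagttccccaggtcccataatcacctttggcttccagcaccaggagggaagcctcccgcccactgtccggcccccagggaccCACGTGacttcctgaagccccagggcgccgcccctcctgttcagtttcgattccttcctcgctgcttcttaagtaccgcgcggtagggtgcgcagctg
Cst7 held an AP-1 match and Cd68 a pair of them, Ctsd held a pair of E-boxes, Fcgr1 held a GAS match, Ifit3 held a pair of ISRE matches and an AP-1 match, and Trim25 held an E-box and no ISRE. Clec7a, Ccl6 and Ly86 held none of the 5 in this window. Among the 12640 tested genes that have a promoter entry, 3.61% held an ISRE, against 19 of 36 type I interferon-stimulated genes (52.8%) and 13 of 29 genes of the interferon-gamma and class I list (44.8%). AP-1 matches were in 6.37% of those tested genes and in 3 of 14 promoters of each plaque-associated list, and E-boxes were in 11.1% and in 5 of 20 lysosomal promoters. Like shares stood in other lists, with AP-1 in 2 of 9 neocortex and 4 of 20 JAK-coupled receptor promoters. E-boxes were in 5 of 14 circadian clock and 4 of 14 interneuron promoters. The plaque receptor promoters held 0 PU.1, ISRE, GAS and E-box matches. These are matches of letters and not shown to be bound.

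Surface receptors of plaque-associated microglia were the list with the largest median among the microglial lists. Of its 20 genes 17 were tested, with a median log2 fold change of 1.25 and 15 above 0. Clec7a passed the threshold, 11 were higher at an unadjusted p under 0.05, in 10 the groups did not overlap, and 7 passed in the 9 libraries alone. Over all genes tested the shares were 1.96% higher at an unadjusted p under 0.05, 1.17% higher without overlap and 0.22% called higher in the 9 alone. The same shares are the background for the counts of the lists that follow. Trem2, the lipid-sensing receptor that this microglial state depends on, was at 9.18 to 14.2 CPM in the 5 Dp16 and at 33.9, 33.1, 30.8 and 26.5 CPM in the 4 5xFAD-Dp16 libraries. That difference of 1.40 (log2, SE 0.30) did not pass over all libraries (edgeR adjusted p = 0.119) and did in the 9 alone (adjusted p = 7.14e-05). Its signalling partner Tyrobp was at 12.9 to 21.7 against 43.6, 33.4, 45.2 and 23.9 CPM, again with carrier 4 nearest to the Dp16 animals.

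Other members had like differences without passing the main test. The integrin Itgax (CD11c) was at 0.325 to 0.669 CPM in Dp16 and at 1.96, 6.13, 2.93 and 2.47 CPM in 5xFAD-Dp16 libraries, a log2 fold change of 2.84 (SE 0.76). Ly86, which pairs with Cd180 in sensing bacterial products, had 1.17 (SE 0.24, edgeR adjusted p = 0.0878), and Cd180 had 1.45 (SE 0.37). The Toll-like receptor Tlr2 had 1.49 (SE 0.33), and the fatty acid receptor Gpr84 had 1.41 (SE 0.41). The scavenger receptors Msr1 and Cd36 were the 2 members below 0 (-0.91, SE 1.09, and -0.78, SE 0.58), at 2.28 CPM or less in every library, with overlapping groups.

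Secreted and lipid-handling genes of the same microglial state behaved less evenly. Of 20 listed, 18 were tested, with a median of 0.15, 16 above 0, 3 at an unadjusted p under 0.05 and 2 without overlap. Only Cst7 of the 18 passed, and Lgals3bp also did in the 9 libraries alone. Lgals3bp, a secreted glycoprotein that interferon also induces, was at 21.7 to 37.6 CPM in Dp16 and at 59.3, 59.1, 54.8 and 50 CPM in 5xFAD-Dp16 libraries (0.96, SE 0.22, edgeR adjusted p = 0.179). Lysozyme (Lyz2) was at 11.5 to 19.5 against 44.1, 27, 45.1 and 12.7 CPM, so that carrier 4 fell within the Dp16 range. Several genes often named beside Cst7 in this state had overlapping groups. Apoe, the lipid carrier made mostly by astrocytes, was at 2387 to 3277 against 2749 to 3386 CPM (0.13, SE 0.11). Lpl had 0.40 (SE 0.34), osteopontin (Spp1) 0.15 (SE 0.56) and Gpnmb 0.05 (SE 0.28). Without 5xFAD-Dp16 library 4 the median of the list was 0.24.

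Lysosomal genes had small values, mostly above 0. All 25 were tested, with a median of 0.25, 21 above 0, 13 at an unadjusted p under 0.05 and 10 without overlap, and 0 passed the threshold, against 8 in the 9 libraries alone. Cd68, a lysosomal membrane protein of phagocytes, was close to constant within each group, at 13.8, 13.2, 13.9, 13.2 and 14.1 CPM in Dp16 and at 29.5, 35.9, 32.1 and 29 CPM in 5xFAD-Dp16 libraries. Its log2 fold change was 1.22 (SE 0.25, edgeR adjusted p = 0.0878, and 2.23e-05 in the 9 libraries alone). Cathepsin D (Ctsd) was at 256, 313, 240, 261 and 246 against 469, 483, 502 and 357 CPM (0.79, SE 0.17, edgeR adjusted p = 0.0878). Cathepsin Z (Ctsz) had 0.75 (SE 0.18) and cathepsin S (Ctss) 0.77 (SE 0.21). In 9 of the 10 genes without overlap, carrier 4 was the lowest of the 4 carriers. Over the 205 such genes of the whole table carrier 4 was the lowest in 75, and carriers 1, 2 and 3 in 46, 39 and 45.

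Fc receptor and phagocytosis genes had 15 of 20 members at an unadjusted p under 0.05, a median of 0.71, 18 above 0 and 11 without overlap, with 0 past the threshold, while Fcgr1, Cybb and Plek passed in the 9 libraries alone (edgeR adjusted p 0.00155 to 0.0116). The high-affinity IgG receptor Fcgr1 was at 2.82 to 5.05 CPM in Dp16 and at 10.4, 8.33, 6.95 and 7.72 CPM in 5xFAD-Dp16 libraries (1.16, SE 0.24, edgeR adjusted p = 0.0878). The NADPH oxidase subunit Cybb was at 0.669 to 1.34 against 3.45, 3.68, 3.09 and 4.12 CPM (1.92, SE 0.45), and the platelet and leukocyte kinase substrate Plek had 0.88 (SE 0.21). Fcgr4 had 1.87 (SE 0.84) and the inhibitory receptor Fcgr2b 1.1 (SE 0.32). In the 11 genes without overlap carrier 4 was the highest of the carriers in 4 and the lowest in 4, while in summed level over the list it was the lowest (357 CPM against 384, 416 and 422).

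Markers of resting microglia were above 0 as well. Of 18 genes, all tested, 16 were above 0, with a median of 0.29, 7 at an unadjusted p under 0.05 and 7 without overlap, and 0 passed, against 2 in the 9 libraries alone, Olfml3 among them. The fractalkine receptor Cx3cr1 was at 58.4 to 65.8 CPM in Dp16 and at 80.8, 94.1, 70.5 and 85.7 CPM in 5xFAD-Dp16 libraries (0.40, SE 0.16). The orphan receptor Gpr34 had 0.70 (SE 0.21), Olfml3 0.57 (SE 0.18) and P2ry13 0.51 (SE 0.18). P2ry12, the ADP receptor that marks resting microglia, had 0.19 (SE 0.18) at 37.6 to 51.2 against 44.1 to 56.8 CPM, and Tmem119 also had 0.19 (SE 0.14). The largest value among the 18 was that of Gpr34, far below those of Cst7 and Clec7a.

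Genes of microglial signalling and Alzheimer risk had a median of 0.41 over 21 tested of 22, with 19 above 0, 7 at an unadjusted p under 0.05 and 2 without overlap, and Grn passed in the 9 libraries alone. Without 5xFAD-Dp16 library 3 the median was 0.19. The 3 smallest p were those of the actin regulators Nckap1l (0.66, SE 0.19) and Abi3 (0.74, SE 0.25) and of progranulin (Grn), a lysosomal protein linked to dementia. Grn was at 52.5 to 55.7 against 71.8, 88, 78.3 and 66.8 CPM (0.51, SE 0.17).

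The 3 chains of complement C1q had like differences. C1qa was at 85.4 to 101 CPM in Dp16 and at 151, 166, 169 and 131 CPM in 5xFAD-Dp16 libraries (0.78, SE 0.20). C1qb had 0.71 (SE 0.20) and C1qc 0.79 (SE 0.20), and the anaphylatoxin receptor C3ar1 had 1.13 (SE 0.29), at 2.07 to 2.57 against 5.42, 5.41, 5.86 and 3.89 CPM. None of the 4 passed over all libraries, and all of them did in the 9 alone (edgeR adjusted p 0.000962 to 0.0317). Of 16 complement genes tested of 18, 14 were above 0, 6 were at an unadjusted p under 0.05 and the same number did not overlap. The median was 0.32, and 0.50 without Dp16 library 2.

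Among 21 chemokines and cytokines tested of 31, Ccl6 passed (in the 9 libraries alone Ccl3 as well), 16 were above 0, 6 were at an unadjusted p under 0.05 and 5 did not overlap. The median of 0.45 was 0.21 without 5xFAD-Dp16 library 1 and 0.29 without Dp16 library 5. Ccl4, a chemokine of activated microglia, had 2 counts in the 5 Dp16 and 58 in the 4 5xFAD-Dp16 libraries. Scaled to library size the ratio was 37.0 (95% interval 9.78 to 312, counting error only, edgeR adjusted p = 0.114). Ccl3, a related chemokine, was at 0.108 to 0.776 against 1.91, 2.2, 2.33 and 3.48 CPM (2.60, SE 0.72). Both were highest in carrier 4, the animal lowest in Cst7, Clec7a and Cd68. The 10 genes that did not enter the test included Tnf, Il6 and Ccl2.

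Toll-like receptor and inflammasome genes had a median of 0.36 over 20 tested of 21, with 15 above 0, 7 at an unadjusted p under 0.05 and 4 without overlap, and Tlr2 passed in the 9 libraries alone. Beside Tlr2 the smallest p was that of Tlr13, an endosomal sensor of bacterial RNA, at 1.17 to 2.68 CPM in Dp16 and at 2.97, 5.12, 6.84 and 3.36 CPM in 5xFAD-Dp16 libraries (1.26, SE 0.36). Markers of other immune cells were low in both groups. Of 15 lymphocyte genes only 4 entered the test, with Cd3e and Cd8a among the 11 that did not. The summed level of the 4 was 1.28 to 2.07 CPM in Dp16 and 2.0 to 6.43 CPM in 5xFAD-Dp16 libraries, highest in library 1. All 4 were above 0 with a median of 0.99, 0 at an unadjusted p under 0.05 and 1 without overlap. Without 5xFAD-Dp16 library 1 the median was 0.46, with 3 above 0. Of 10 neutrophil and monocyte genes 4 entered, at 0.485 to 1.39 against 0.471 to 1.19 summed CPM, with a median of -0.15 (-0.47 to 0.97 without single libraries). Border macrophage genes (9 of 10) were at 10.4 to 13.9 against 6.25 to 25.1 summed CPM, 8 of them above 0 and 0 at an unadjusted p under 0.05 (1 without 5xFAD-Dp16 library 4). Their median was 0.20 (-0.23 to 0.49 without single libraries). Without 5xFAD-Dp16 library 3 it was -0.23, with 3 of 9 above 0. The part of these cells in the results was not tested.

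**Figure D3:**
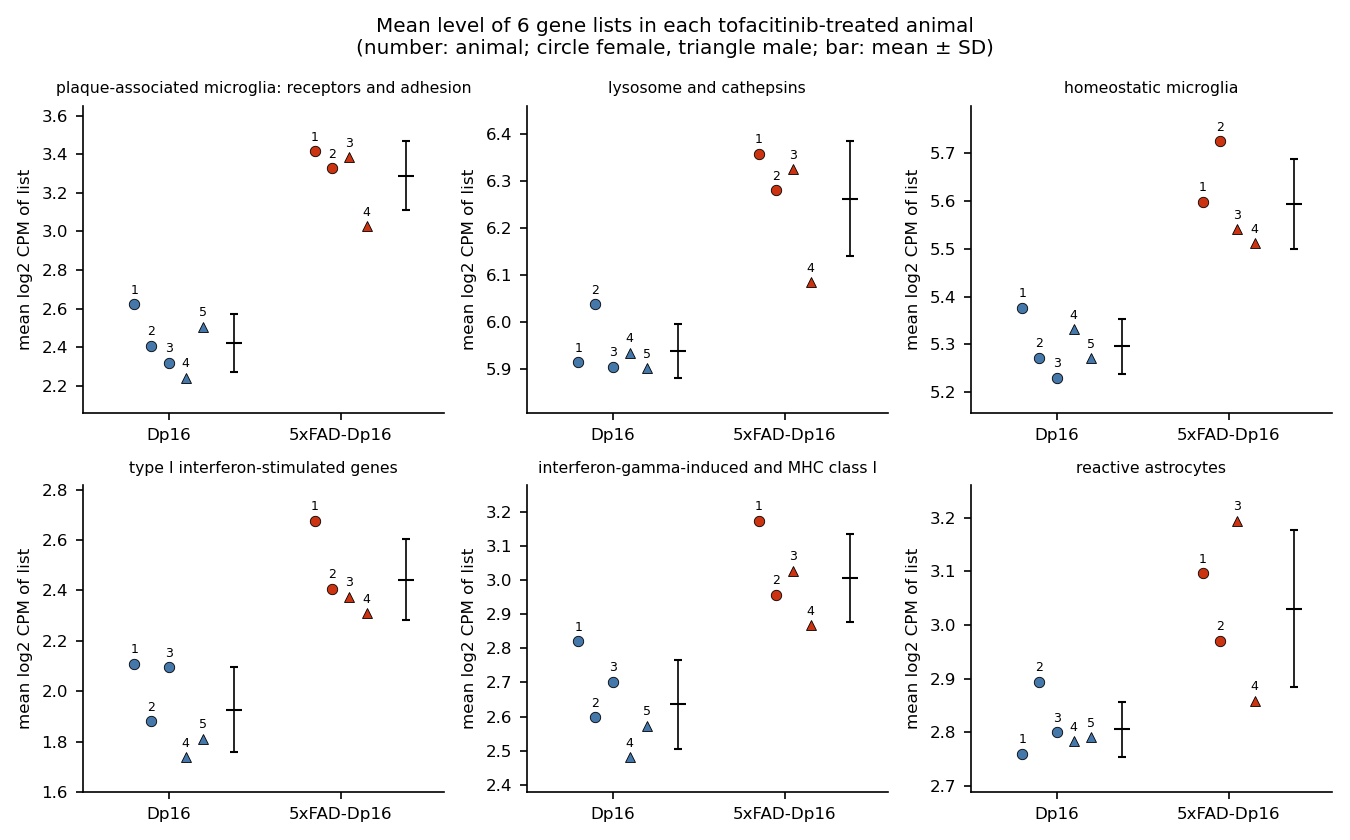
Mean log2 CPM of the tested genes of 6 lists (vertical axes, not starting at 0) in each of the 5 Dp16 and 4 5xFAD-Dp16 animals given tofacitinib, with the mean and SD of each group. The groups do not overlap for 5 lists, carrier 4 is the lowest carrier in each of those 5, and for reactive astrocytes it falls below Dp16 animal 2.

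Interferon-stimulated genes had values above 0 almost throughout, with both groups on the JAK inhibitor, and none passed the test. Of 50 genes of the type I response 49 were tested, 48 were above 0, and the median was 0.61. At an unadjusted p under 0.05 stood 24, in 8 the groups did not overlap, and 0 passed the threshold, against 1 (Lgals3bp) in the 9 libraries alone. Without 5xFAD-Dp16 library 1, whose summed level of the list (476 CPM) lay above that of the other carriers (389 to 400) and of the Dp16 libraries (258 to 337), the median was 0.55 and 14 were at an unadjusted p under 0.05. Ifit3, which blocks viral translation with other Ifit proteins, was at 15.3, 6.07, 12.7, 7.64 and 6.73 CPM in Dp16 and at 25.4, 18.4, 15.6 and 18.2 CPM in 5xFAD-Dp16 libraries. The lowest carrier was just above the highest Dp16 animal, with a log2 fold change of 1.04 (SE 0.27, edgeR adjusted p = 0.301). Reads of Ifit3 and its near copy Ifit3b may have been shared in counting.

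Usp18, which shuts off the type I receptor, was at 0.596 to 1.86 against 2.92, 3.92, 1.52 and 2.65 CPM (1.47, SE 0.44), and the ubiquitin ligase Trim25 had 0.51 (SE 0.15). The nuclear DNA sensor Ifi204 had 2.24 (SE 0.69), Isg15 1.01 (SE 0.42) and Bst2 0.95 (SE 0.31). Ifit1 was at 2.38 to 5.64 against 4.23 to 7.31 CPM (0.67, SE 0.32), with overlapping groups. Irf9, the DNA-binding subunit of the interferon-activated complex, had 0.54 (SE 0.17).

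Values for antigen presentation by MHC class I lay mostly on the same side. Of 35 genes induced by interferon gamma or belonging to MHC class I, all tested, 33 had a log2 fold change above 0 (median 0.46), 13 were at an unadjusted p under 0.05, 10 did not overlap and 0 passed. In the 9 libraries alone 4 passed: Irf8, B2m, H2-D1 and H2-T23 (edgeR adjusted p 0.00583 to 0.0488). Without 5xFAD-Dp16 library 1 the median was 0.30, with 12 at an unadjusted p under 0.05. Irf8, a transcription factor of microglia and other myeloid cells, was at 5.15 to 6.47 CPM in Dp16 and at 15.9, 10.6, 12.6 and 10.4 CPM in 5xFAD-Dp16 libraries (1.09, SE 0.24, edgeR adjusted p = 0.119). H2-D1 was at 47.3 to 77 against 95.7, 107, 92.8 and 80.6 CPM (0.71, SE 0.17), and its light chain B2m at 118 to 165 against 230, 219, 204 and 187 CPM (0.58, SE 0.17). H2 genes resemble each other, and how reads that match several were counted is not given. The GTPase Iigp1, which acts against intracellular parasites, had 0.72 (SE 0.21) and the immunoproteasome subunit Psmb8 0.78 (SE 0.23). MHC class II genes had a median of 0.26, with 9 of 10 above 0, 1 (H2-DMb1, 0.94, SE 0.32) at an unadjusted p under 0.05 and 0 without overlap. That median was 0.12 without 5xFAD-Dp16 library 3 and 0.47 without library 4, and the count at an unadjusted p under 0.05 was 2 without Dp16 library 3 or 5xFAD-Dp16 library 3.

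The components of JAK-STAT signalling themselves differed little. The median of 18 kinases, STATs and their partners was 0.08 (0.03 to 0.04 without Dp16 library 1, 2 or 4), with 14 above 0 and 4 at an unadjusted p under 0.05, among them Irf9, the phosphatase Ptpn6 (0.79, SE 0.24) and Jak3 (0.44, SE 0.19), the kinase of common gamma chain receptors. The inhibitor Pias3 was the only one of the 18 lower without overlap (-0.20, SE 0.11). Of 13 feedback genes Usp18 alone was at an unadjusted p under 0.05 (2 genes without Dp16 library 2 or 5xFAD-Dp16 library 1 or 2), and the median was -0.01 (-0.04 to 0.07 without single libraries). The feedback inhibitor Socs3 was at 1.55 to 2.05 CPM in Dp16 and at 2.23, 3.4, 2.28 and 1 CPM in 5xFAD-Dp16 libraries, and Cish at 3.23 to 7.04 against 3.12 to 5.55 CPM. JAK-coupled receptors outside the segment had a median of 0.12 over 23 tested of 24, 18 of them above 0. Of these receptors 5 were at an unadjusted p under 0.05, among them the receptors of IL-10 (Il10ra, 0.76, SE 0.21), G-CSF (Csf3r, 1.02, SE 0.33) and IL-21 (Il21r, 1.01, SE 0.37). That count was 3 without 5xFAD-Dp16 library 2, and the median 0.23 without Dp16 library 2 and 0.25 without 5xFAD-Dp16 library 4.

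The 4 receptors encoded in the duplicated segment, of which both groups carry an extra copy, did not pass the test. Ifnar1 (chromosome 16) was at 57.1, 62.9, 62.9, 52 and 56.8 CPM in Dp16 and at 58.5, 63.8, 51 and 55.6 CPM in 5xFAD-Dp16 libraries (-0.02, SE 0.08). Ifnar2 had 0.12 (SE 0.10), Ifngr2 -0.09 (SE 0.16) and Il10rb 0.17 (SE 0.14), and the groups overlapped in all 4. Of the 107 tested genes of the segment 53 were above 0, with a median of 0.00 and 3 at an unadjusted p under 0.05. App, on the same segment, was at 1866, 2420, 2594, 2373 and 2386 against 2130, 2642, 2145 and 2488 CPM (0.02, SE 0.13). None of the 12 genes of amyloid precursor and its secretases was at an unadjusted p under 0.05 (1 without 5xFAD-Dp16 library 4), and the smallest p was that of the gamma-secretase subunit Psenen (0.18, SE 0.11). No level of the human transgenes was read here.

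Gfap, the intermediate filament of reactive astrocytes, was at 668, 540, 448, 636 and 614 CPM in Dp16 and at 956, 858, 1168 and 886 CPM in 5xFAD-Dp16 animals. The groups did not overlap, with a log2 fold change of 0.74 (SE 0.36), which did not pass over all libraries (edgeR adjusted p = 0.9999) and did in the 9 alone (0.71, edgeR adjusted p = 0.0249). Complement C4b was at 38.6 to 52.3 against 52.4, 110, 94.9 and 68.3 CPM (0.91, SE 0.32), and Serpina3n had 0.43 (SE 0.30) with overlapping groups. The list of reactive genes had a median of 0.21 over 29 tested of 30, with 24 above 0 and 4 at an unadjusted p under 0.05: C4b, Psmb8, Cd14 and Ggta1. The 18 genes of resting astrocytes had a median of 0.00 (-0.02 to 0.09 without single libraries) and 0 at an unadjusted p under 0.05.

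Neuronal and oligodendrocyte lists showed 0 genes at an unadjusted p under 0.05. Medians, each with its range over the fits without single libraries, were -0.04 (-0.14 to 0.07) for 21 glutamatergic synapse genes and -0.05 (-0.23 to 0.10) for 23 immediate-early genes. They were -0.06 (-0.09 to 0.02) for 16 interneuron genes, 0.00 (-0.15 to 0.12) for 10 dentate granule cell genes and -0.10 (-0.20 to 0.04) for 9 CA1 genes. Myelin genes had -0.03 (-0.15 to 0.01) and oligodendrocyte precursor genes -0.08 (-0.13 to -0.04). The synapse, interneuron, dentate granule and CA1 medians were highest without 5xFAD-Dp16 library 1. The lowest values came without 5xFAD-Dp16 library 4 for synapse, dentate granule and CA1 genes and without library 2 for immediate-early genes. Without 5xFAD-Dp16 library 1, whose summed myelin level (9748 CPM) was the highest of the carriers (6725 to 7010 in the others), the myelin median was -0.15 with 1 of 15 above 0. The 12 thalamus genes and 12 striatum genes were all above 0 (medians 0.39 and 0.36), and without that library 5 and 6 of them were, with medians of -0.01 and 0.01.

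Cholesterol synthesis genes had 20 of 22 members above 0, a median of 0.17 and 7 at an unadjusted p under 0.05, with 1 without overlap. Farnesyl diphosphate synthase (Fdps) was at 17.8 to 22.3 CPM in Dp16 and at 23.6, 26, 29.3 and 28 CPM in 5xFAD-Dp16 libraries (0.41, SE 0.12, edgeR adjusted p = 0.528). The count rested on single libraries: it was 11 without 5xFAD-Dp16 library 1 (median 0.28), 1 without library 2 and 3 without library 4.

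**Figure D4:**
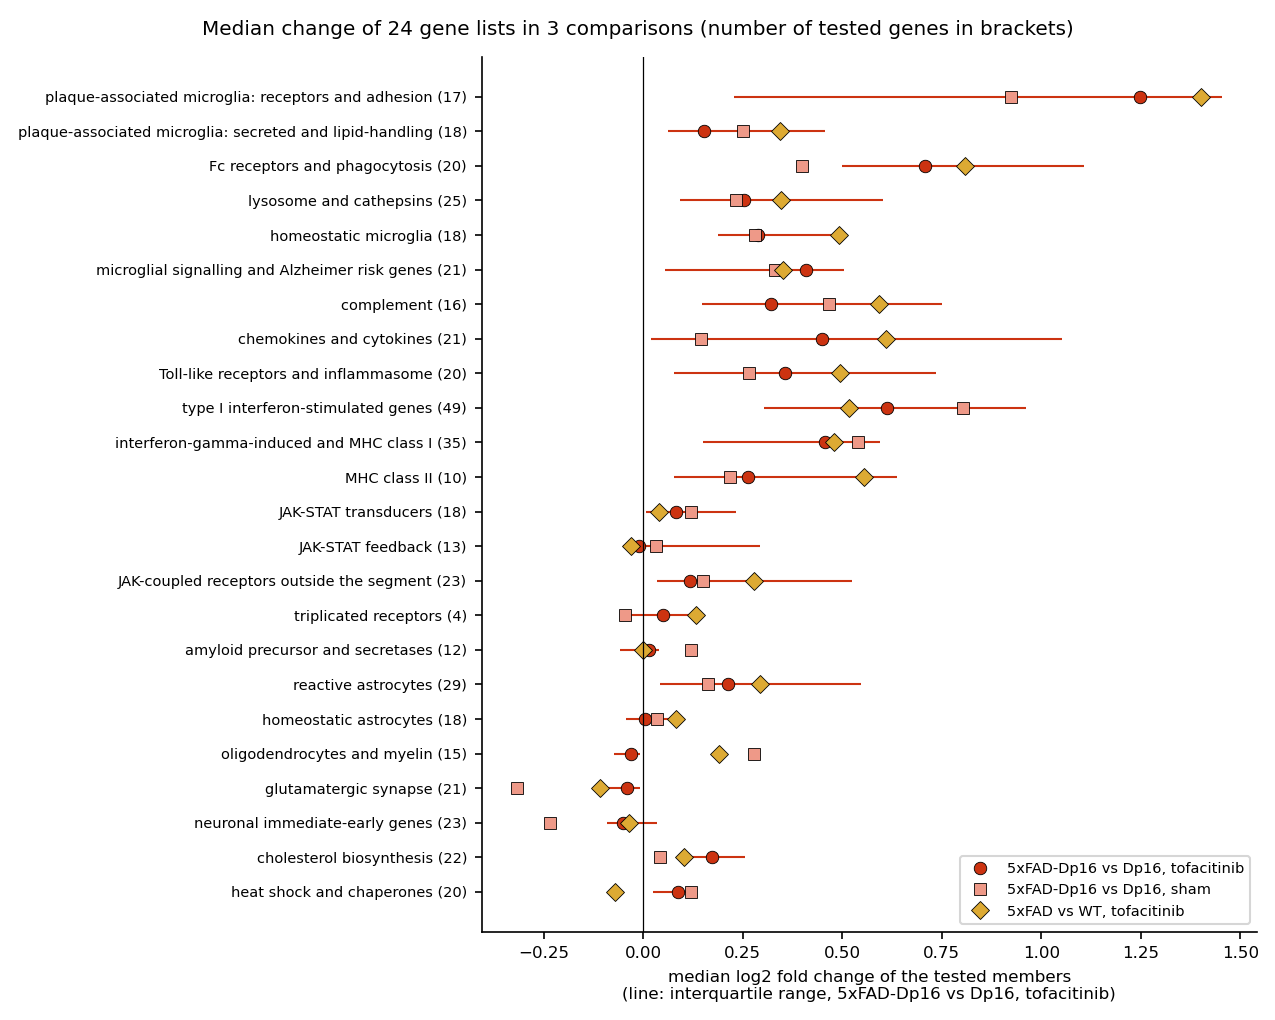
Median log2 fold change (horizontal axis) of the tested genes of 24 lists, with their interquartile range for 5xFAD-Dp16 versus Dp16 under tofacitinib, beside the medians of the sham comparison and of 5xFAD versus WT under tofacitinib. Microglial and interferon lists lie to the right of 0 in all 3 comparisons, led by the plaque receptors at 1.25, 0.92 and 1.40. These medians are over all libraries, and the sham median of MHC class II was -0.23 without 3 libraries low in hippocampal markers.

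To ask whether the transgene effect on the Dp16 background differed with the drug, it was set beside the same contrast in sham animals, which shares no library with it. There edgeR called 0 genes (0%), with 1275 at an unadjusted p under 0.05 (7.28%), and DESeq2 called 11. Sham 5xFAD-Dp16 library 4 was low in hippocampal markers, and 3 genes were called without it. Cst7 was at 0.27, 0.47 and 0.06 CPM in the 3 sham Dp16 and at 13.6, 14.7 and 2.25 CPM in the 3 sham 5xFAD-Dp16 libraries, a log2 fold change of 5.22 (SE 1.00). For Ccl6 the sham value was 2.16 (SE 0.41), for Clec7a 2.78 (SE 0.79) and for Thy1 1.40 (SE 0.25). The plaque receptor list had a median of 0.92 in sham and 1.25 in tofacitinib animals, and the type I interferon list 0.80 and 0.61. Without the 3 libraries low in hippocampal markers, sham 5xFAD-Dp16 library 4 among them, these sham medians were 0.94 and 0.72. The sham median of MHC class II went from 0.22 to -0.23 and that of the interferon-gamma and class I list from 0.54 to 0.30. Complement went from 0.47 to 0.20, secreted plaque genes from 0.25 to 0.11 and Toll-like receptor genes from 0.27 to 0.42. The 3 libraries were a fixed choice, and their marker levels and a cut-off are not given here. Tofacitinib 5xFAD-Dp16 library 1, the lowest of its comparison in CA1 markers (553 against 743 to 868 CPM), was kept in that fit.

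The difference of the effects, tofacitinib minus sham, passed in 0 genes (0%) with edgeR, with 471 at an unadjusted p under 0.05 (2.69%), and in 1 with DESeq2. For Cst7 the difference was 1.09 (SE 1.5), for Ccl6 0.58 (SE 0.53), for Clec7a 1.1 (SE 1.02), for Ifit3 -0.05 (SE 0.43) and for Thy1 -0.02 (SE 0.32). Over the interferon list the median difference was -0.17, with 14 of 49 above 0, and over the plaque receptors it was 0.18, with 10 of 17 above 0, beside 49.7% of all genes. Standard errors of this size do not show that the effects were alike. Hcar2 was at 0.22, 0.06 and 0.18 CPM in sham Dp16 and at 0.81, 0.99 and 0.55 CPM in sham 5xFAD-Dp16 libraries, while all 5 tofacitinib Dp16 libraries were at 0 (edgeR adjusted p = 0.998 for the difference).

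The same transgenes without the duplication were read in 5xFAD against WT animals given tofacitinib, also with no shared library. There edgeR called 54 genes higher (0.308%) and 2 lower (0.0114%), with 1287 at an unadjusted p under 0.05 (7.35%), and the 5 genes called on the Dp16 background were among the 54. On the Dp16 background all 54 were above 0, 45 were at an unadjusted p under 0.05, and in 41 the groups did not overlap. Their median log2 fold change was 1.13 in 5xFAD versus WT and 0.79 in 5xFAD-Dp16 versus Dp16, and in 50 of the 54 it was larger in the former. The 54 were chosen on their values in the former, which can raise them there, and the number called there fell to between 14 and 29 without any single WT library or 5xFAD library 1, 4 or 5, and was 85 without 5xFAD library 2. Fitted on those 10 libraries alone, 0 genes passed. Without the 3 libraries low in hippocampal markers, WT library 3 and 5xFAD library 2 among them, 80 genes were called higher and 2 lower. The median of the thalamus list in 5xFAD versus WT was 1.07 with these libraries and -0.05 without them. Among the 54, the protease inhibitor Timp1 lay farthest from equal change, with 4.77 in 5xFAD versus WT and 0.54 (SE 0.70) on the Dp16 background.

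The difference of effects between the Dp16 and the WT background passed in 0 genes (0%) with edgeR and in 0 with DESeq2, with 438 at an unadjusted p under 0.05 (2.5%). For Cst7 it was -0.10 (SE 1.42), for Clec7a -0.70 (SE 0.93), for Ccl6 0.67 (SE 0.45), for Trem2 -0.34 (SE 0.42) and for Gfap -0.21 (SE 0.50). All 17 plaque receptor genes were below 0 in this difference, with a median of -0.35, 1 at an unadjusted p under 0.05 and 0 past the threshold. The 17 were read in the same animals, so they are not separate results. The interferon list had a median of 0.19 with 29 of 49 above 0, beside 48.8% of all genes. Standard errors of the size given for Cst7, Clec7a and Trem2 show neither that the effects differed nor that they were alike. The interferon median in 5xFAD versus WT was 0.52, and 0.61 without the 3 libraries low in hippocampal markers, against 0.61 on the Dp16 background. That of the plaque receptors in 5xFAD versus WT was 1.40, and 1.52 without those libraries. 5xFAD animals spread widely, with Cst7 at 22.8, 6.77, 38.3, 36.6 and 6.59 CPM, against 11.7 to 21.4 CPM in the 5xFAD-Dp16 animals. The animal at 6.77 CPM was 5xFAD library 2, which was low in hippocampal markers, while the animal at 6.59 CPM was not among the libraries low in them. Among the 5 smallest p were those of the long noncoding RNA Dancr, which on the Dp16 background was at 0.0542 to 0.362 CPM in Dp16 and at 1.17, 1.53, 0.706 and 0.943 CPM in 5xFAD-Dp16 libraries (2.23, SE 0.50, edgeR adjusted p = 0.122), and had -0.34 in 5xFAD versus WT.

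**Figure D5:**
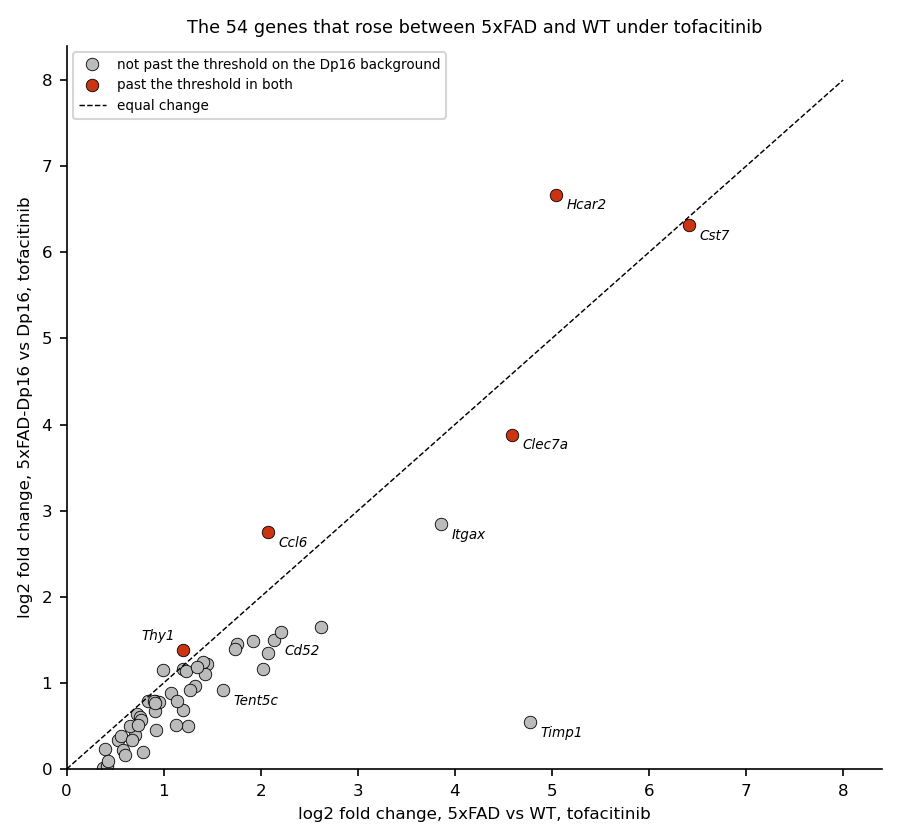
Log2 fold change of the 54 genes that rose in 5xFAD versus WT under tofacitinib (horizontal axis) and of the same genes in 5xFAD-Dp16 versus Dp16 (vertical axis). Red points passed in both, most points lie under the dashed line of equal change (50 of 54), and the place of Hcar2 depends on the prior count since the Dp16 group had 0 counts.

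Carriers 1 and 2 were female and 3 and 4 male, so sex was tested as a difference of the effect. It passed in 0 genes (0%) with edgeR and in 0 with DESeq2, with 443 at an unadjusted p under 0.05 (2.53%). For Ccl6 the female effect minus the male effect was 0.64 (SE 0.67), for Cst7 -0.16 (SE 1.90) and for Clec7a -0.25 (SE 1.43). With 2 or 3 animals of a sex in each group, these differences were within their errors.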

How the data were processed

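Poly(A) RNA of mouse hippocampus was sequenced, and the authors deposited gene counts and RPKM values for 34 libraries (GENCODE release 24, per the file headers and names). HTSeq 0.6.1, HISAT2 2.1.0, SAMtools 1.5, FastQC 0.11.5 and bcl2fastq appear in the submitters' processing notes without their roles. The strand setting, the treatment of reads that match several genes and the scaling behind the RPKM values are not given in the sources used here. Counts in the 9 compared libraries came to 17.0 to 21.0 M each.

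From the deposited counts, 17518 of 55385 genes passed filterByExpr. They were fitted in edgeR 4.0.16 (R 4.3.3; TMM, robust quasi-likelihood, group means and sex, all 34 libraries, 25 residual degrees of freedom), with Benjamini-Hochberg adjustment over all genes and a threshold of 0.05. Tests are two-sided and were tested on simulated data. Fold changes are on the log2 scale. Their SE is approximate, taken as the absolute log2 fold change divided by the square root of the F statistic of its test. CPM values are scaled by TMM library sizes. RPKM values served only to compare levels between genes. DESeq2 1.42.0, sva 3.50.0 with 2 surrogate variables, other filters and scalings, and fits without single libraries were alternatives. Positions are from GENCODE release 21 (GRCm38). Intervals cover counting error only. Group, sex, age, dose and number of the animals are given, but not whether any shared a litter, so p-values measure the spread between these samples.

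Named genes were App, Thy1, Gfap, Cst7 and the 4 receptors of the segment, genes past the threshold (with at least 1 CPM up to 20 in each direction, and all members of lists), the 4 members of each list with the smallest p, and the smallest p of each test of a difference. Other genes were named after their values were seen, and some genes that the rule names are not reported here. Members and lists were chosen with earlier results of these data known.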

Additional observations from a re-analysis of the deposited data

Results flagged for a closer look

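In 20 of 283 checks (7.07%) of a gene, list or library total in either group, a single animal stood apart from the rest of its group by Dixon's test at the 95% level. Chance flags about 1 in 20. Among the Dp16 animals, animal 1 was high in Tyrobp (21.7 CPM) and C1qc (67.1 CPM) and low in the summed amyloid and secretase genes (2254 CPM) and the duplicated segment (8586 CPM). Animal 2 was high in Ctsd (313 CPM), Ctsz (56.4 CPM), summed JAK-coupled receptors (425 CPM) and choroid plexus genes (5337 CPM). Animal 3 was high in Socs3 (2.05 CPM) and animal 5 in Mpeg1 (40.8 CPM), while animal 4 was low in Slc15a3 (1.46 CPM) and Msr1 (0 CPM).

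Among the 5xFAD-Dp16 animals, animal 1 was high in Tcf7l2 (58.2 CPM) and in the sums of thalamus (549 CPM), striatum (477 CPM), myelin (9748 CPM) and type I interferon-stimulated genes (476 CPM). Animal 3 was high in Gpnmb (12.4 CPM) and reactive astrocyte genes (1711 CPM), and animal 2 was low in CA3 and CA2 genes (877 CPM). The part of neighbouring tissue in the interferon level of animal 1 was not tested beyond leaving that animal out.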

How the results depend on the processing

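The 5 genes called between 5xFAD-Dp16 and Dp16 animals were 4 to 5 when single libraries were left out, 5 with DESeq2 size factors, without the sex term or with the replicate number as a block, 10 without the 3 libraries of other groups low in hippocampal markers, 20 with 2 surrogate variables, 25 with DESeq2, 35 in the compared groups alone and 117 (99 higher, 18 lower) with no filter on low counts. Same-numbered animals of the groups correlated at -0.166 to 0.0648 and differently numbered ones at -0.165 to 0.216. These values show no pairing by number, but so few pairs cannot exclude a shared litter. The block changed no count by over 1.5 times (80 genes in 5xFAD versus WT, 0 in sham and in the 3 differences). In sham animals 0 genes were called, and 1 without the sex term or in those groups alone, 2 with surrogate variables, 3 without the 3 libraries, 11 with DESeq2, 511 with no filter and 0 to 3 without single libraries. For 5xFAD versus WT the 56 became 107 with surrogate variables, 100 with DESeq2, 416 with no filter, 0 in those groups alone and 14 to 85 without single libraries. The differences gave 0 genes, but 100 (drug), 58 (background) and 29 (sex) with no filter, and 1 for the drug with DESeq2. The cause was not tested. Of 95 genes under these alternatives, 1486 values kept their direction and side, 110 came to pass, 2 (Clec7a) no longer passed and 11 turned in direction, none of them called, while 1 (Drd2) had no adjusted p in DESeq2. With surrogate variables these were Spp1 (-0.051) and App (-0.015). Without single libraries they were Spp1 (-0.19 to 0.42, below 0 without 5xFAD-Dp16 library 1 or 3), Gpnmb (-0.17 to 0.144) and Ifnar1 (-0.066 to 0.018), both turned without library 3, App (-0.059 to 0.075, below 0 without Dp16 library 1 or 5xFAD-Dp16 library 2 or 4), and Tcf7l2 (-0.34 to 1.34) and Timp1 (-0.095 to 0.915), both without 5xFAD-Dp16 library 1. Groups of 4 and 5 animals and the low counts of Hcar2 and Ccl4 limit the precision.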
